A study of Homo sapiens and Mus musculus with 16 samples.

Results

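The glycolysis enzymes are 10 genes, 1 for each enzymatic step from glucose to pyruvate: HK2, GPI, PFKP, ALDOA, TPI1, GAPDH, PGK1, PGAM1, ENO1 and PKM. The rule takes them by symbol and uses no measured value, but the members were chosen with earlier results of these data known. All 10 were found among the 22286 genes of the human count table, and 9 of the 10 symbols were found, ignoring case, among the 15881 genes of the mouse table. The mouse gene for glucose-6-phosphate isomerase is listed there as Gpi1, so its symbol did not match, and its values are given apart from the 9.

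P-bodies are cytoplasmic condensates of RNA and protein in which untranslated mRNAs gather with decapping factors, deadenylases and translational repressors. In P-body-seq, particles marked by the P-body protein LSM14A fused to GFP are sorted by flow cytometry, and their RNA is sequenced beside the RNA of the cytoplasmic material before the sort. Glycolysis splits a six-carbon sugar into pyruvate in the cytosol, yields ATP and NADH, and runs at a high rate in transformed and pluripotent cells. Its enzymes are abundant proteins made from well-translated mRNAs, and GAPDH in particular is used as a reference transcript in many assays.

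The 16 libraries covered 4 cell types with 2 P-body and 2 cytoplasm libraries each. HEK293T, a transformed line from human embryonic kidney, and mESC, the KH2 line of mouse embryonic stem cells labelled serum-LIF, carried a lentiviral LSM14A-GFP and were labelled total RNA. Both the liver bud progenitors and the day-20 neurons were derived from UCLA4, a human embryonic stem cell line with LSM14A-GFP placed in the AAVS1 locus, and were labelled polyA RNA. Every library, cytoplasm included, therefore came from cells that express the fusion protein, and each line is a single engineered line. The cytoplasm sample was an aliquot of the material that entered the sorter, so P-bodies were still in it and an enrichment is measured against a mixture. By the study's methods that material was the resuspended pellet of a centrifuged lysate without nuclei. It is thus not the whole cytoplasm, and RNA left in the supernatant enters neither fraction. The study describes its sequencing replicates as biologically independent samples, while the labels do not say whether the 2 libraries of a group came from separate cultures, so p-values measure the spread between these libraries, which may be technical.

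Library totals ranged from 6368953 to 17972284 counts, and ribosomal RNA genes took 3.09% to 13.4% of the P-body counts and 9.63% to 24.9% of the cytoplasm counts. The 2 neuron P-body libraries stood further apart than any other pair, with a chi-square of 21.1 per gene against 2.005 to 5.45 for the other 7 groups and a Spearman correlation of 0.911 against 0.962 to 0.987. STMN2, a neuronal marker, was at 872 to 1103 CPM in the neuron libraries and at most 8.32 CPM in the other human libraries. CPM is a count relative to its library total, unscaled for the marker ranges here and scaled for the enzymes below. The neural progenitor list summed to 944 to 1047 CPM in neuron P-bodies and 569 to 578 CPM in neuron cytoplasm. The neuron list summed to 9146 to 11900 CPM over both fractions. The liver bud libraries held the hepatic markers TTR at 34.9 to 47.5 CPM and HNF4A at 13.8 to 40.0 CPM, but also the pluripotency markers POU5F1 at 82.5 to 95.4 CPM and LIN28A at 657 to 747 CPM. All 7 pluripotency markers and all 8 hepatic markers were above 3 counts in the sum of their 2 P-body libraries. The pluripotency list summed to 1578 to 2747 CPM there over both fractions against 182 to 405 CPM for the hepatic list. Most of the hepatic sum in the cytoplasm was APOB, at a scaled mean of 262 CPM. FOXA2 (8.06), AFP (7.04), APOA1 (1.79), HHEX (1.34) and SERPINA1 (0.459) were far lower, the last near the floor. The parts of undifferentiated cells in the liver bud values and of progenitors in the neuron values below were not tested. In bulk samples of this kind, fewer cells of a type and less RNA per cell cannot be told apart.

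Before any scaling, the 10 mRNAs together took a smaller share of the P-body than of the cytoplasm counts in every cell type. In HEK293T the share was 0.203% and 0.197% in the P-body libraries against 0.601% and 0.669% in the cytoplasm. In liver bud progenitors it was 0.280% and 0.277% against 0.359% and 0.374%, the closest of the 4 pairs of fractions. In day-20 neurons it was 0.213% and 0.210% against 0.349% and 0.348%. The 9 mouse members took 0.268% and 0.292% of the P-body counts against 0.487% and 0.494% of the cytoplasm counts. The fractions did not overlap in any cell type. Since ribosomal RNA took more of the cytoplasm counts, the shares were also computed without it, which widened the gap: 0.205% to 0.213% against 0.721% to 0.796% in HEK293T and 0.317% to 0.321% against 0.451% to 0.474% in liver bud progenitors.

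**Figure D1:**
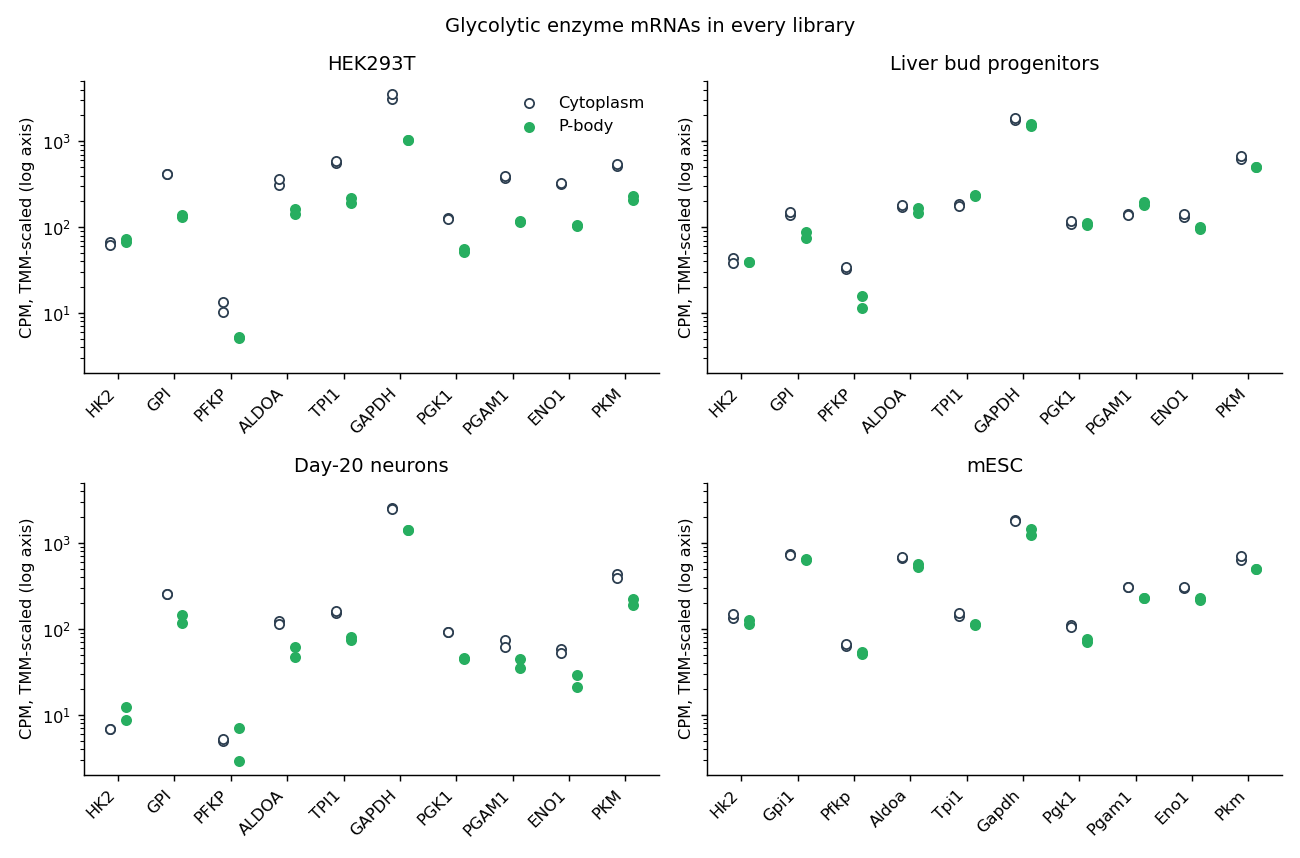
CPM, scaled within each cell type and drawn on a log axis, of the 10 enzymes in pathway order. Each point is a library, open for cytoplasm and filled for P-body. GAPDH was the highest in each cell type, and most filled points lie below the open points of the same enzyme, with TPI1 and PGAM1 in liver bud progenitors and HK2 in neurons above them. Gpi1 in the mouse panel was not matched by symbol.

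The P-body and cytoplasm libraries of each cell type were compared with edgeR's quasi-likelihood test on the counts, with p-values adjusted by Benjamini-Hochberg over all genes tested and a call at an adjusted p under 0.05. In HEK293T 9 of the 10 members were lower in P-bodies and 0 higher, with a median log2 change of -1.40, while 22.8% of all 21903 genes tested were called lower and 19.3% higher, with a median of -0.01. In liver bud progenitors 6 members were lower and 2 higher, with a median of -0.20 (all genes 17.1% lower, 21.4% higher, median -0.09). In day-20 neurons 8 were lower and 0 higher, with a median of -0.99 (all genes 14.1% lower, 14.6% higher, median 0.19). In mESC all 9 matched members were lower, with a median of -0.43 (all genes 20.6% lower, 25.8% higher, median -0.11), and Gpi1 was lower too. Abundant genes were called more often: of the genes that averaged 20 CPM or more, 34.2% were lower in HEK293T, 25.4% in mESC, 37.1% in neurons and 27.7% in liver bud progenitors. The shares called higher were 50.7%, 53.5%, 31.4% and 53.1% in the same order. For the 0 members called higher in HEK293T and neurons, no member had a positive change with an unadjusted p under 0.05, and DESeq2 also called 0 in each. No member had a positive change in mESC.

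**Figure D2:**
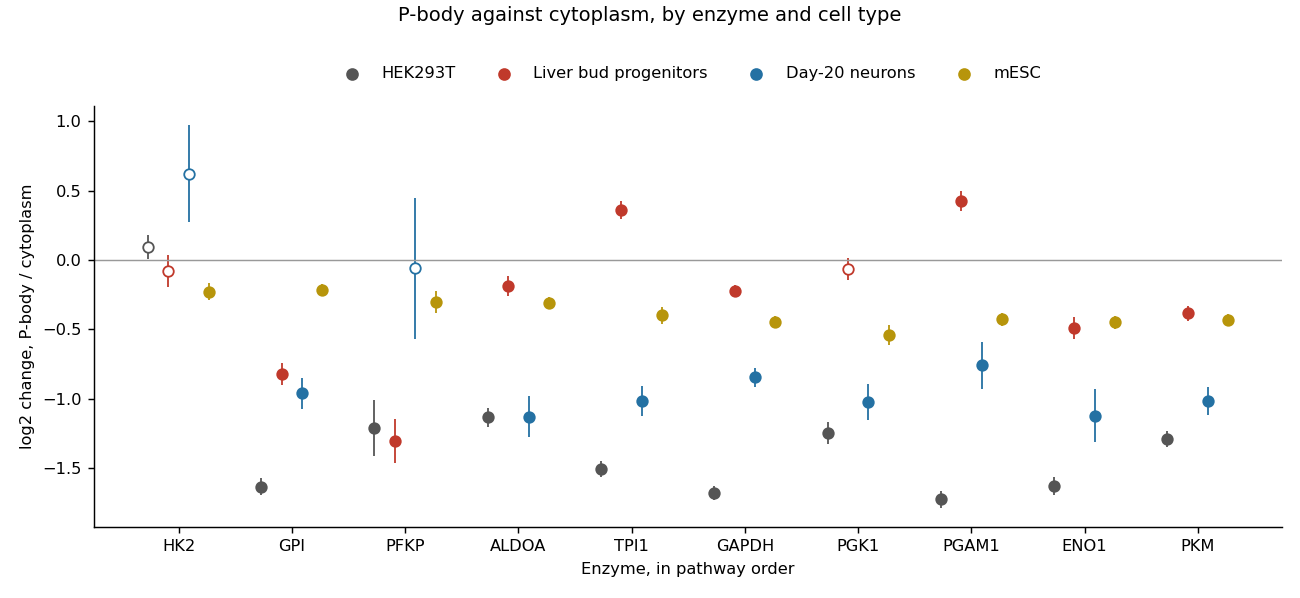
The log2 change from cytoplasm to P-body of each enzyme, in pathway order, with bars of 1 standard error from the edgeR fit and 4 libraries per cell type. Filled points passed an adjusted p of 0.05. HEK293T values lie lowest for most enzymes, mESC values lie between -0.54 and -0.21, and the 2 positive called values are TPI1 and PGAM1 in liver bud progenitors.

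HK2, which phosphorylates glucose to glucose-6-phosphate and so commits it to the cell, was the 1 member not called in HEK293T. HK2 (chr2:74834127-74893359 of hg38 in GENCODE 44, as for the positions below, plus strand) was at 67.5 and 72.3 CPM in HEK293T P-bodies and at 68.0 and 62.8 CPM in the cytoplasm. The values overlapped, with a log2 change of 0.10 ± 0.09 (SE) that did not pass the test (adjusted p = 0.437). In liver bud progenitors it was at 38.9 and 39.2 CPM in P-bodies and at 44.1 and 38.7 CPM in the cytoplasm, again overlapping, with a log2 change of -0.08 ± 0.12 (adjusted p = 0.648). Neurons held little HK2, at 12.5 and 8.80 CPM in P-bodies and 6.89 and 6.90 CPM in the cytoplasm. Both P-body values lay above the cytoplasm there, but the log2 change of 0.62 ± 0.35 did not pass the test (adjusted p = 0.206). It passed without the second P-body library (0.85, adjusted p = 0.0237) and with all 12 human libraries in a single fit (0.51, adjusted p = 0.0394). Mouse Hk2 was at 116 and 127 CPM in P-bodies against 135 and 148 CPM in the cytoplasm and was lower, with a log2 change of -0.23 ± 0.06 (adjusted p = 0.0048). That call was lost without the first P-body library (adjusted p = 0.0955) or without the second cytoplasm library (adjusted p = 0.0698).

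GPI, which turns glucose-6-phosphate into fructose-6-phosphate, was lower in P-bodies in all 3 human cell types. GPI (chr19:34359480-34402413, plus strand) was at 137 and 130 CPM in HEK293T P-bodies against 411 and 418 CPM in the cytoplasm, a log2 change of -1.63 ± 0.06 (adjusted p = 5.54e-32). The change was -0.82 ± 0.08 in liver bud progenitors (adjusted p = 7.18e-14) and -0.96 ± 0.11 in neurons (adjusted p = 2.62e-05). No library of one fraction reached the other in these cell types. Mouse Gpi1 was at 627 and 647 CPM against 748 and 728 CPM, a log2 change of -0.21 ± 0.04 (adjusted p = 5.27e-05).

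PFKP, the platelet form of phosphofructokinase, catalyses the main regulated step of the pathway and was the least abundant member per length in HEK293T. PFKP (chr10:3066333-3137718, plus strand) was at 5.21 and 5.17 CPM in HEK293T P-bodies against 13.7 and 10.3 CPM in the cytoplasm, a log2 change of -1.21 ± 0.20 (adjusted p = 6.53e-07). Liver bud progenitors held it at 11.4 and 15.6 CPM against 32.4 and 34.7 CPM, the strongest depletion among the members there at -1.30 ± 0.16 (adjusted p = 9.72e-11). The neuron libraries did not resolve it. Its P-body values there were 7.06 and 2.87 CPM, on either side of the cytoplasm's 5.005 and 5.30 CPM, and the log2 change was -0.06 ± 0.51 (adjusted p = 0.946). In mESC Pfkp was at 51.6 and 53.6 CPM in P-bodies against 63.1 and 66.5 CPM, and the log2 change was -0.30 ± 0.08 (adjusted p = 0.00343).

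ALDOA cleaves fructose-1,6-bisphosphate into the pair of triose phosphates, and TPI1 interconverts them. ALDOA (chr16:30064164-30070457, plus strand) was at 164 and 143 CPM in HEK293T P-bodies against 312 and 362 CPM in the cytoplasm, a log2 change of -1.13 ± 0.07 (adjusted p = 7.39e-23). In neurons it was at 62.4 and 46.9 CPM against 124 and 114 CPM, a nearly equal change of -1.13 ± 0.15 (adjusted p = 6.24e-05). The fractions nearly met in liver bud progenitors, at 145 and 169 CPM in P-bodies and 174 and 184 CPM in the cytoplasm. The log2 change of -0.19 ± 0.07 (adjusted p = 0.0346) had the largest adjusted p among the called members there, and the call was lost without the first liver bud P-body library (-0.08, adjusted p = 0.572), without the second cytoplasm library (adjusted p = 0.0551) and in DESeq2 (adjusted p = 0.0927). Mouse Aldoa was at 532 and 570 CPM against 672 and 694 CPM, with a log2 change of -0.31 ± 0.04 (adjusted p = 7.41e-07).

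TPI1 was among the 2 members called in opposite directions in different cell types. TPI1 (chr12:6867119-6870948, plus strand) was at 217 and 190 CPM in HEK293T P-bodies against 559 and 596 CPM in the cytoplasm, a log2 change of -1.505 ± 0.06 (adjusted p = 1.45e-30). Liver bud progenitors held it at 229.9 and 235 CPM in P-bodies against 185 and 178 CPM in the cytoplasm, a change of 0.36 ± 0.07 (adjusted p = 5.21e-06). The P-body libraries were the higher ones here, the reverse of HEK293T. In neurons the values were 74.7 and 79.8 CPM in P-bodies and 152 and 160 CPM in the cytoplasm, a change of -1.01 ± 0.11 (adjusted p = 1.41e-05). Tpi1 was lower in mESC as well, at 112 and 113 CPM against 143 and 155 CPM, a change of -0.40 ± 0.06 (adjusted p = 5.01e-06). Reads from processed copies could be split between loci, and summing the listed copies TPI1P2 and TPI1P3 with TPI1 gave 0.36 in liver bud progenitors. These copies held means of only 2.02 and 0.255 CPM in liver bud cytoplasm, so the sum could change little. It does not recover reads that were left uncounted.

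GAPDH, which oxidises glyceraldehyde-3-phosphate and reduces NAD+, supplied between 40.6% and 71.4% of the members' counts in each library. GAPDH (chr12:6534512-6538374, plus strand) was at 1037 and 1025 CPM in HEK293T P-bodies against 3075 and 3526 CPM in the cytoplasm, a log2 change of -1.68 ± 0.05 (adjusted p = 1.67e-36). Only 6.92% of all genes tested had a lower change in HEK293T. In neurons it was at 1403 and 1405 CPM against 2579 and 2462 CPM, a change of -0.84 ± 0.07 (adjusted p = 9.47e-07). The liver bud change was small but larger than the spread, at 1595 and 1514 CPM against 1772 and 1857 CPM, or -0.22 ± 0.04 (adjusted p = 1.11e-05). Mouse Gapdh was at 1251 and 1444 CPM against 1840 and 1829 CPM, or -0.45 ± 0.05 (adjusted p = 9.52e-09). GAPDH was thus called lower in all 4 cell types, by between 0.22 and 1.68 on the log2 scale.

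PGK1, the first ATP-yielding enzyme of the pathway, has the lowest GC content of the human members. PGK1 (chrX:77910739-78129295, plus strand) was at 51.8 and 55.3 CPM in HEK293T P-bodies against 129 and 125 CPM in the cytoplasm, a log2 change of -1.25 ± 0.08 (adjusted p = 3.55e-21). In neurons it was at 45.3 and 44.9 CPM against 92.3 and 91.2 CPM, a change of -1.02 ± 0.13 (adjusted p = 5.58e-05). The fractions overlapped in liver bud progenitors, at 105 and 112 CPM in P-bodies and 109 and 118 CPM in the cytoplasm, and the change of -0.06 ± 0.08 did not pass the test (adjusted p = 0.585). The change passed there when counts were scaled by library size alone (-0.25, adjusted p = 0.00745). Mouse Pgk1 showed the strongest depletion among the mouse members, at 71.1 and 77.3 CPM against 110 and 106 CPM, or -0.54 ± 0.07 (adjusted p = 4.39e-07).

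PGAM1, which moves the phosphate of 3-phosphoglycerate, had the widest span of log2 changes over the human cell types, 2.15, from the lowest value of any member to the highest called one. PGAM1 (chr10:97426191-97433444, plus strand) was at 114 and 118 CPM in HEK293T P-bodies against 372 and 395 CPM in the cytoplasm, a log2 change of -1.72 ± 0.06 (adjusted p = 1.47e-32). Its liver bud values were 198 and 181 CPM against 143 and 139.5 CPM, a change of 0.43 ± 0.07 (adjusted p = 6.6e-07). The order of the fractions was again opposite in these cell types, as for TPI1. In neurons it was at 34.9 and 44.997 CPM against 73.5 and 61.8 CPM, or -0.76 ± 0.17 (adjusted p = 0.00409), a call that was lost without the first neuron cytoplasm library (-0.64, adjusted p = 0.0557). Pgam1 in mESC was at 231 and 227 CPM against 309 and 305 CPM, or -0.43 ± 0.05 (adjusted p = 2.19e-08). Adding the listed copy PGAM1P5 to PGAM1 left 0.42 in liver bud progenitors, where the copy held a mean of only 1.29 CPM in the cytoplasm and could change little.

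ENO1 forms phosphoenolpyruvate and PKM, the muscle and general form of pyruvate kinase, makes pyruvate and ATP from it. ENO1 (chr1:8861000-8879190, minus strand) was at 105 and 104 CPM in HEK293T P-bodies against 316 and 329 CPM in the cytoplasm, a log2 change of -1.63 ± 0.06 (adjusted p = 4.15e-31). It changed by -0.49 ± 0.08 in liver bud progenitors (adjusted p = 2.16e-07) and by -1.12 ± 0.19 in neurons (adjusted p = 0.000599). PKM (chr15:72199029-72231819, minus strand) was at 228 and 206 CPM against 509 and 550 CPM in HEK293T, a change of -1.29 ± 0.06 (adjusted p = 1.3e-27). It changed by -0.38 ± 0.05 in liver bud progenitors (adjusted p = 9.85e-09) and by -1.01 ± 0.10 in neurons (adjusted p = 5.32e-06). The fractions did not overlap for either gene in any cell type. In mESC Eno1 changed by -0.45 ± 0.05 and Pkm by -0.43 ± 0.04, both called. Counts per gene do not separate the M1 and M2 splice forms of PKM.

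To ask whether the depletion differed between cell types, the interaction of cell type and fraction was fitted over 8 libraries. Between neurons and liver bud progenitors, which share the parent line and the library kit, 7 of the 10 members were more depleted in neurons and 0 less, where 8.5% of all genes were called lower and 9.21% higher in that difference. Of the genes that averaged 20 CPM or more, 20.7% were lower and 19.6% higher. PGAM1 differed by -1.19 ± 0.17 (adjusted p = 0.000166) and TPI1 by -1.38 ± 0.12 (adjusted p = 1.14e-06), the largest differences. ALDOA differed by -0.95, PGK1 by -0.97, ENO1 by -0.64, PKM by -0.64 and GAPDH by -0.63. The ENO1 call was lost without any 1 of the 4 liver bud libraries or the first neuron cytoplasm library (adjusted p from 0.0755 to 0.134), and those of ENO1 and PKM with library size alone (-0.28 each). GPI, already low in liver bud P-bodies, differed by -0.15 ± 0.16 (adjusted p = 0.578). HK2, at 0.70 ± 0.29 (adjusted p = 0.117), and PFKP, at 1.23 ± 0.47 (adjusted p = 0.0883), had positive differences that did not pass the test. DESeq2 also called 0 members higher, and HK2 and PFKP were the 2 members with a positive difference and an unadjusted p under 0.05. Both were called without the second neuron P-body library (HK2 0.81, PFKP 1.63) and when counts were scaled by library size alone.

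HEK293T was set against each of the UCLA4-derived cell types in the same way, but there the cell line, the LSM14A-GFP construct and the library kit differ together, and their parts in a difference cannot be told apart from that of the cell type. Against liver bud progenitors 8 members were more depleted in HEK293T and 1 less (all genes 12.5% lower, 15% higher, and genes averaging 20 CPM or more 25.9% lower, 32.8% higher). PGAM1 differed most, by -1.92 ± 0.10 (adjusted p = 1.34e-21), followed by TPI1 at -1.64, GAPDH at -1.23, PGK1 at -0.95, ENO1 at -0.91, ALDOA at -0.72, PKM at -0.68 and GPI at -0.58. HK2 differed by 0.40 ± 0.14 (adjusted p = 0.0307). That value depended on the scaling: the changes fitted in each cell type alone differ by 0.18, and the call was absent in DESeq2 (adjusted p = 0.091), with library size alone (0.23) and after filtering on low counts (0.22). It was also lost without either liver bud P-body library (adjusted p = 0.0771 and 0.0691), the first liver bud cytoplasm library (0.178), the second HEK293T P-body library (0.0888) or the second HEK293T cytoplasm library (0.109). Against neurons 3 members were more depleted in HEK293T and 0 less (all genes 6.35% lower, 6.19% higher): PGAM1 at -0.82, GAPDH at -0.69 and GPI at -0.53. Of the genes that averaged 20 CPM or more, 15.9% were lower and 17.1% higher in this difference. The GPI call was lost without any 1 of the 4 HEK293T libraries (adjusted p from 0.058 to 0.0947), and without the first neuron P-body library 5 members were called lower, ENO1 (-0.59) and TPI1 (-0.40) among them. No member had a positive difference there at an unadjusted p under 0.05, and DESeq2 also called 0. With library size alone 8 members were called lower in this last comparison. No share of all genes from that fit stands beside this count, and the scaling also moved the median of all genes within the cell types, as given at the end. The liver bud, neuron and HEK293T libraries each enter 2 of these 3 comparisons.

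**Figure D3:**
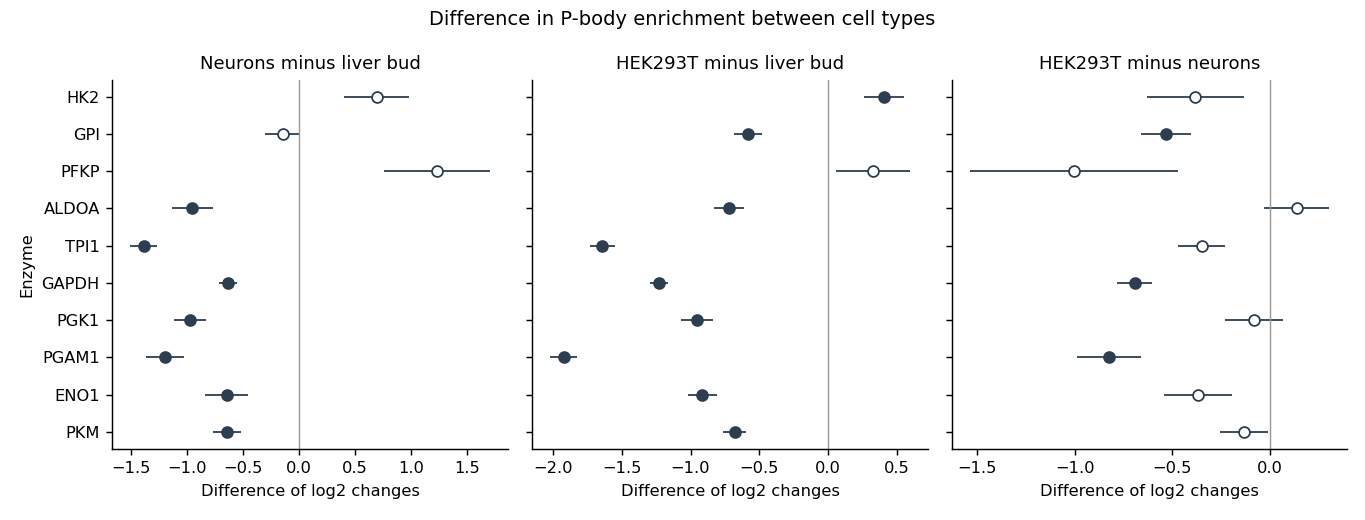
Difference between cell types in the log2 change from cytoplasm to P-body, with bars of 1 standard error from an edgeR interaction over 8 libraries. Filled points passed an adjusted p of 0.05. In the 2 panels against liver bud progenitors every enzyme from ALDOA on lies at -0.63 or below, while HK2 and PFKP lie to the right of 0.

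GC content moved with P-body enrichment across all genes. Over genes that averaged 20 CPM or more and had an annotated transcript, Spearman's rho between the GC content of the transcript and the log2 change was -0.531 in HEK293T, -0.734 in mESC, -0.696 in neurons and -0.741 in liver bud progenitors. The members were richer in GC than these genes, with a median of 54.2% against 44.3% to 46.7% for the human cell types, and 53.5% against 48.1% in mouse. PGK1 was the exception at 42.8%, and HK2 followed at 50.5%. These values belong to 1 chosen transcript per gene, and which 3′ UTR form the cells used was not determined. For PGK1 the coding sequence is at 50.2% GC and the 3′ UTR of 3465 nt at 39.7%. Its place among genes of like GC content and its values after the correction below therefore rest on that choice. In HEK293T 6 of the 10 members, GPI, TPI1, GAPDH, PGK1, PGAM1 and ENO1, lay below the lower quartile of the genes in their bin of GC content, and in neurons 4 did, GPI, TPI1, PGK1 and ENO1. For PGK1 the 1808 genes at 40% to 45% GC had a median of 0.50 and a lower quartile of -0.08 in HEK293T, against -1.25 for PGK1 itself. In neurons that bin had a median of 0.46 and a lower quartile of -0.14, against -1.02. The liver bud members divided, with ALDOA, TPI1, GAPDH and PGAM1 above the upper quartile of their bin and GPI, PFKP and PGK1 below the lower one. HK2 and PFKP lay above the upper quartile in neurons. In mESC Pfkp, Tpi1, Pgk1 and Pgam1 lay below the lower quartile.

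**Figure D4:**
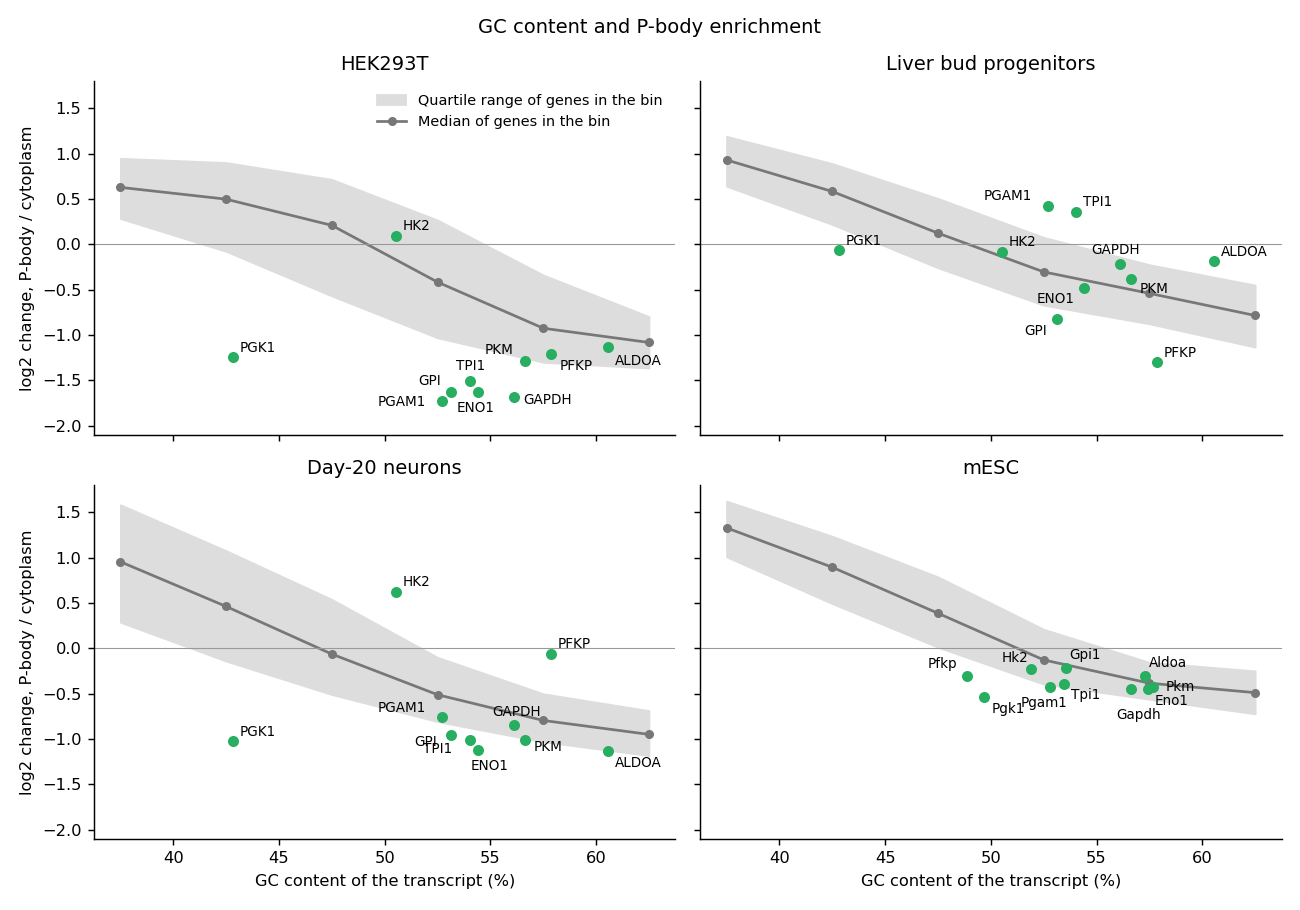
The log2 change from cytoplasm to P-body against the GC content of the chosen transcript. The grey line and band give the median and quartiles of genes averaging 20 CPM or more in bins of 5% GC, and green points are the enzymes. PGK1 lies below the band in all 3 human panels, and TPI1 and PGAM1 lie above it in liver bud progenitors.

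After removal of each library's trends over GC content and transcript length, the depletion was smaller. GC content moved with the change across all genes, so removing its trend shrinks the depletion of GC-rich members by construction. The study reports AU-rich mRNAs as enriched in P-bodies, and that preference is taken out with the trend. The counts of members below have no share of all genes from the same fits beside them. In HEK293T 7 members were still lower and HK2 was called higher (0.24, adjusted p = 0.0166), with a members' median of -0.61. ALDOA moved from -1.13 to -0.03 (adjusted p = 0.775) and PFKP to -0.46 (adjusted p = 0.0774), while PGK1 moved further down to -1.62. In liver bud progenitors 5 members were lower and TPI1 and PGAM1 still higher, at 0.34 and 0.49. PGK1 was now called lower (-0.40), whereas PKM lost its call (-0.06) and ALDOA changed sign to 0.11 without passing the test (adjusted p = 0.185). In neurons 5 were lower, led by PGK1 at -1.44, and ALDOA, PGAM1 and ENO1 lost their calls. In mESC 7 were lower, Gapdh lost its call (-0.06, adjusted p = 0.239) and Aldoa moved to 0.08 (adjusted p = 0.0739). Between neurons and liver bud progenitors 4 members were called more depleted in neurons after this correction, PGK1 (-1.12), PGAM1 (-0.82), TPI1 (-0.81) and PKM (-0.34), and GAPDH moved from -0.63 to 0.02 (adjusted p = 0.795). With the correction GPI, GAPDH and PGK1 were called lower in each of the 3 human cell types. The correction of the differences between cell types was chosen after seeing the data.

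The members also differ in the length of the transcript and of its 3′ UTR. The chosen HK2 transcript is 5626 nt with a 3′ UTR of 2418 nt, and that of PGK1 is 4812 nt with a 3′ UTR of 3465 nt. GAPDH (201 nt), ALDOA (202 nt), PFKP (223 nt) and ENO1 (360 nt) have short 3′ UTRs beside a median of 1873 nt over genes with at least 20 CPM in HEK293T. Over the 10 members, Spearman's rho of the 3′ UTR length with the log2 change was 0.115 in HEK293T, 0.188 in neurons and 0.333 in liver bud progenitors, a description over 10 genes from the same libraries. The pentamer ATTTA, the core of AU-rich elements, occurs 5 times in the 3′ UTR of HK2, 6 times in that of PGK1 and 2 times in that of GPI. It occurs once each in those of ALDOA and PGAM1, and 0 times in those of the other 5 human members. How often the pentamer falls in 3′ UTRs of like length and base content was not counted.

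MicroRNAs pair through bases 2 to 8, the seed, with sites in 3′ UTRs, and Argonaute proteins that carry them are found in P-bodies. Because HK2 was the member not called in HEK293T, its 3′ UTR was searched, with those of the others, for matches to 7 microRNAs known from these tissues or from the repression of glycolytic genes. The mature sequences of those with a match in HK2 are shown with the seed in capitals, as RefSeq gives them (GRCh38.p14).
hsa-miR-143-3p: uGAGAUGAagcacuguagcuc
hsa-miR-9-5p: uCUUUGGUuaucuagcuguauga
hsa-miR-199a-5p: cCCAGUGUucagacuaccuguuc
No 2 of these share a seed. miR-143-3p is known to repress HK2, miR-9-5p is a microRNA of neural tissue, and no microRNA was measured in these libraries.

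The sites are shown 5′ to 3′ on the transcript strand, from hg38, with the 7 bases that pair with the seed in capitals, to set the HK2 sites beside those of PGK1 and ENO1, members that were depleted in HEK293T P-bodies.
HK2, miR-143-3p, chr2:74893221-74893249, plus strand: tgaatagcgaaTCATCTCaaatccttgag
HK2, miR-9-5p, chr2:74891556-74891584, plus strand: tgggcaatgaaACCAAAGccaggagttga
HK2, miR-9-5p, chr2:74892124-74892152, plus strand: aagcaaaggaaACCAAAGgaatcgtttca
HK2, miR-199a-5p, chr2:74893098-74893126, plus strand: tccaaaaaggaACACTGGaaaataaattt
PGK1, miR-9-5p, chrX:78128200-78128228, plus strand: tttttaacctaACCAAAGaagatagtaga
ENO1, miR-143-3p, chr1:8861061-8861089, minus strand: tgagcctcgtgTCATCTCcggggtggcca
Matches are common in long 3′ UTRs: of 2887 3′ UTRs of like length to that of HK2, 18.7% held a match to miR-143-3p, 19.6% to miR-9-5p and 18.0% to miR-199a-5p. The match to let-7a-5p was in 0 of the 10 members. Matches to miR-302a-3p and miR-17-5p were in PFKP alone, and those to miR-122-5p in ALDOA and PKM. A match describes the letters and does not show a site in use.

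Levels per length were compared in the cytoplasm libraries, as CPM per kilobase of the chosen transcript. These libraries hold pelleted material, so RNA left in the supernatant is missing from these levels and from the comparison of neuron and liver bud cytoplasm below. GAPDH was highest in every cell type, at 2568 in HEK293T, 1292 in mESC, 1962 in neurons and 1412 in liver bud progenitors. HEK293T then followed with TPI1 (427), PKM (230), PGAM1 (213), ALDOA (205), ENO1 (181), GPI (100), PGK1 (26.4), HK2 (11.6) and PFKP (4.56), where PGAM1 and ALDOA overlapped between libraries and the other neighbours did not. The liver bud order was PKM (281), TPI1 (134), ALDOA (109), PGAM1 (78.3), ENO1 (76.5), GPI (34.98), PGK1 (23.6), PFKP (12.8) and HK2 (7.36), with PGAM1 and ENO1 overlapping. Neurons kept PKM (180), TPI1 (116) and ALDOA (72.8) at the top, then GPI (61.3), PGAM1 (37.5), ENO1 (31.0) and PGK1 (19.1), and held HK2 (1.23) and PFKP (1.96) lowest. In mESC Aldoa (452) stood second, before Pkm (278), Gpi1 (256), Pgam1 (173), Eno1 (151), Tpi1 (92.5), Pgk1 (59.1), Hk2 (25.7) and Pfkp (15.6). HK2 and PFKP were thus the lowest of the members in all 4 cell types, which does not give the level of their steps. HK1, a further hexokinase gene, lay above HK2 in each, at 19.0 in HEK293T, 34.6 in mESC, 27.2 in neurons and 15.4 in liver bud progenitors. Of the other phosphofructokinase genes, PFKL lay above PFKP in HEK293T (6.89) and neurons (7.93), and PFKM in neurons (13.7). In mESC and liver bud progenitors PFKP lay above both.

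When neuron cytoplasm was set against liver bud cytoplasm, 6 members were lower in neurons and 2 higher, against 25.8% and 26% of all genes. Of the genes that averaged 20 CPM or more, 38.4% were lower and 45.6% higher. HK2 was at 7.44 and 7.45 CPM in neurons against 41.1 and 36.2 CPM in liver bud progenitors, a log2 difference of -2.37 ± 0.18 (adjusted p = 1.36e-19). PFKP was at 5.40 and 5.72 CPM against 30.2 and 32.4 CPM, or -2.49 ± 0.20 (adjusted p = 8.77e-19). These are the largest differences among the members, and no other member fell below -1.10. ENO1 differed by -1.10, PGAM1 by -0.85, PKM by -0.43 and ALDOA by -0.38. GPI rose to 274 and 272 CPM from 130 and 140 CPM, or 1.02 ± 0.08 (adjusted p = 3.85e-18), and GAPDH rose by 0.68 ± 0.06 (adjusted p = 2.09e-15). TPI1 was at 165 and 173 CPM in neurons against 172 and 166 CPM, with a difference of -0.0048 ± 0.09 (adjusted p = 0.965). PGK1 differed by -0.10 ± 0.10 (adjusted p = 0.423). Both were called lower in neurons when counts were scaled by library size alone (TPI1 -0.39, PGK1 -0.48). With GC and length trends removed TPI1 was called lower (-0.47) and PGK1 higher (0.19, adjusted p = 0.0428).

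**Figure D5:**
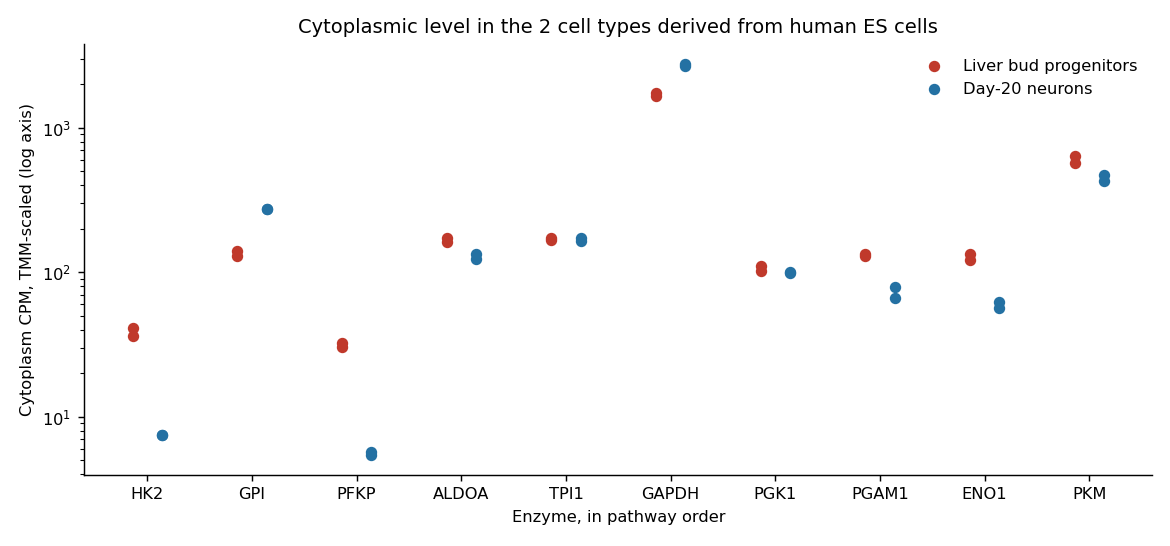
Cytoplasmic CPM on a log axis, scaled over the 4 libraries shown, of each enzyme in liver bud progenitors and day-20 neurons. Each point is a library. HK2 and PFKP lie near 41.1 to 30.2 CPM in liver bud progenitors and at 5.40 to 7.45 CPM in neurons, whereas TPI1 overlaps and GAPDH and GPI lie higher in neurons.

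Since these levels differ between the cell types, promoters of HK2, lower in neurons, and GAPDH, higher there, are shown from RefSeq (GRCh38.p14). Each runs from 250 bases before to 50 bases after an annotated start, for HK2 that of the chosen transcript. The GAPDH stretch lies wholly within the annotated gene, which begins at chr12:6534512, so its start is an internal one. Which GAPDH start the cells used was not determined. Capitals mark ACGTG on either strand, the core that hypoxia-inducible factors and other basic helix-loop-helix factors recognise, where CACGTG counts as overlapping matches on both strands.
HK2, chr2:74833877-74834176, plus strand: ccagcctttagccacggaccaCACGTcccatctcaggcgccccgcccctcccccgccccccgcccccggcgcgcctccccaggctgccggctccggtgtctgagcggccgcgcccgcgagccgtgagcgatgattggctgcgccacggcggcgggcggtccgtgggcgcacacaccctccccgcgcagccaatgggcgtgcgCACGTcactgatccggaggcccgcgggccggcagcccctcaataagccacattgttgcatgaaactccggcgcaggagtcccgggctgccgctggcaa
GAPDH, chr12:6535014-6535313, plus strand: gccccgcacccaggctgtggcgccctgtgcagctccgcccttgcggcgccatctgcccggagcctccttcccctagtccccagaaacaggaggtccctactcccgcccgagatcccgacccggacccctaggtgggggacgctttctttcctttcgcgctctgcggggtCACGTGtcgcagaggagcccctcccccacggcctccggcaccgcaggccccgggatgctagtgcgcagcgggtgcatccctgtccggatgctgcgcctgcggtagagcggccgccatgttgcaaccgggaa
Of 17 promoters listed for the members, 10 held the motif, beside 21.4% of 35116 promoters of the same length. Counted by gene, 7 of the 10 members had it in at least 1 promoter, and some members have several, partly overlapping. The share of all genes counted in this way was not computed. The member promoters ranged from 53.3% to 79.7% GC, beside a median of 58.7% over all promoters, and most of them lay above that median. The motif itself holds a CG, and whether it is more frequent in the members than in promoters of like GC content was not tested. It is present in members that were lower (HK2), higher (GAPDH) and not called (PGK1, with 3 matches) in the neuron cytoplasm, and says nothing of which factors bound there.

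The wider pathway was described with 73 further genes, of which 69 are listed for human and 57 for mouse. In HEK293T 37 of 67 tested were lower in P-bodies and 12 higher, with a median log2 change of -0.60. Among liver bud genes 18 of 68 were lower and 19 higher (median -0.11), in neurons 23 of 69 were lower and 10 higher (median -0.42), and in mESC 27 of 57 were lower and 9 higher (median -0.17). The shares lower were thus 55.2%, 26.5%, 33.3% and 47.4% in that order. Of genes averaging 20 CPM or more, 34.2%, 27.7%, 37.1% and 25.4% were lower, so the liver bud and neuron shares did not exceed those of abundant genes. Of 16 citric acid cycle genes, 13 were lower and 2 higher in HEK293T, 11 lower and 0 higher in mESC, 8 lower and 1 higher in neurons, and 5 lower and 7 higher in liver bud progenitors. The shares lower were 81.25%, 68.75%, 50% and 31.25% in this order, the last close to that of abundant genes. Of 11 regulators of glycolysis, 6 were higher and 4 lower in HEK293T, shares of 54.5% and 36.4% that are close to those of abundant genes given above. Of 8 pentose phosphate genes, 6 were lower in HEK293T, 4 in neurons and 3 in liver bud progenitors. In mESC 4 of 7 were lower (57.1%) and 1 higher.

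At the exit of the pathway, 2 subunit genes of the pyruvate dehydrogenase complex were enriched in P-bodies of all 3 human cell types. PDHX, the component that anchors the E3 subunit, rose by 1.51 ± 0.06 in HEK293T, 1.803 ± 0.12 in neurons and 1.21 ± 0.07 in liver bud progenitors. DLAT, the E2 subunit, rose by 0.60 ± 0.06, 1.88 ± 0.13 and 0.92 ± 0.08 in the same order, and DLD, the E3 subunit, by 1.56 ± 0.24 in neurons. The complex did not move as a whole: DLD was lower in HEK293T (-0.25 ± 0.10) and higher in liver bud progenitors (0.57 ± 0.14). PDHA1, of the E1 subunit and named with PDHB after their values were seen, was lower in HEK293T (-1.29 ± 0.10) and neurons (-0.53 ± 0.17) and not called in liver bud progenitors (-0.11 ± 0.10, adjusted p = 0.488). PDHB, also of E1, was lower in HEK293T (-0.80 ± 0.13), higher in liver bud progenitors (0.47 ± 0.17) and not called in neurons (-0.25 ± 0.37, adjusted p = 0.647). BPGM, which makes 2,3-bisphosphoglycerate, rose by 0.63 ± 0.08 in HEK293T. Among mouse genes Pdk4, a kinase that inhibits pyruvate dehydrogenase, rose by 1.79 ± 0.06, Rpe of the pentose phosphate pathway by 1.23 ± 0.06, and Hif1a, a subunit of the hypoxia-inducible factor, by 0.72 ± 0.05.

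Among the listed pathway genes, those named for the smallest p among the depleted ones were LDHB, given below, and genes of the citric acid cycle, the pentose phosphate pathway and glucose transport. CS, citrate synthase, changed by -1.45 ± 0.07 in HEK293T and -0.82 ± 0.12 in neurons, and OGDH, a citric acid cycle dehydrogenase, by -0.95 ± 0.08 in liver bud progenitors and -1.02 ± 0.10 in neurons. The pentose phosphate genes TKT (-1.88 ± 0.10 in HEK293T) and PGD (-0.94 ± 0.10 in neurons) were lower too. In mESC Sdhc, a succinate dehydrogenase subunit, changed by -0.83 ± 0.06, Taldo1 by -0.87 ± 0.11 and Tkt by -0.57 ± 0.07.

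LDHB, a lactate dehydrogenase subunit, was a further gene with opposite calls. It was at 137 and 134 CPM in HEK293T P-bodies against 422 and 409 CPM in the cytoplasm, a log2 change of -1.62 ± 0.06. Its liver bud values were 230 and 212 CPM against 141 and 119 CPM, or 0.77 ± 0.07 (adjusted p = 2.81e-14). LDHA, the other main subunit, changed by -0.28 in HEK293T and by 0.75 in liver bud progenitors, both called, and by -0.28 in neurons without a call (adjusted p = 0.414). LDHB was lower in neurons (-0.57, adjusted p = 0.0204), and both Ldha (-0.15) and Ldhb (-0.41) were lower in mESC.

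The glucose transporter SLC2A3 was abundant in liver bud progenitors, at 711 and 748 CPM in P-bodies against 1125 and 1076 CPM in the cytoplasm, and was lower in P-bodies by a log2 change of -0.59 ± 0.05. In neurons (0.23, adjusted p = 0.391) and HEK293T (0.33, adjusted p = 0.552) it was not called. SLC2A1 was lower in HEK293T (-0.70) and liver bud progenitors (-0.39) and not called in neurons (-0.71, adjusted p = 0.051). Both mouse transporters were lower by small steps, Slc2a1 by -0.11 and Slc2a3 by -0.20.

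Of the isoenzymes, HK1 reached 20 CPM in all 4 cell types and, unlike HK2, was lower in P-bodies of each human cell type. It was at 31.6 and 31.3 CPM in HEK293T P-bodies against 68.2 and 68.3 CPM in the cytoplasm, a log2 change of -1.12 (adjusted p = 2.69e-15). The change was -0.17 for Hk1 in mESC, -0.82 in neurons and -0.80 in liver bud progenitors, all called. In the neuron cytoplasm HK1 was at 27.2 CPM per kilobase against 1.23 for HK2. PFKM (-1.28 ± 0.22) and the neuronal enolase ENO2 (-0.46 ± 0.14) were lower in neuron P-bodies, and Pfkl (-0.78) and Aldoc (-0.67) in mESC.

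The human genes whose levels over the 12 human libraries were most like the mean of the members were PFN1 (Pearson's r = 0.987), NUP155 (0.982), MYBL2 (0.974), KPNA6 (0.969) and CRTAP (0.965), among 3962 genes averaging 50 CPM or more. PFN1, profilin, had log2 changes of -1.78 in HEK293T, -0.71 in neurons and -0.46 in liver bud progenitors. Among the members themselves r was 0.974 for ALDOA and 0.972 for ENO1, against 0.539 for GAPDH and 0.463 for GPI. These 12 libraries fall into 6 groups of 2, so the values describe few distinct points.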

How the data were processed

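RNA of sorted P-bodies and of presort cytoplasm was sequenced in 16 libraries. The authors deposited raw counts per gene symbol for hg38 and mm10, after removing genes with few reads over all samples. The study's methods describe salmon for the total RNA and featureCounts for the polyA libraries, and the tables do not say which route each column took. The submitters' processing notes name DESeq2. Tables of the authors' own P-body comparisons (fold changes and p-values) were not used.

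Members and gene lists were chosen with earlier results of these data known. Counts were tested with edgeR 4.0.16 (R 4.3.3, limma 3.58.1) in quasi-likelihood fits with TMM scaling. Each cell type was fitted on its 4 libraries, differences between cell types on 8, and the cytoplasm comparison on 4. Genes with no counts in the libraries compared were left out, and p-values were adjusted by Benjamini-Hochberg over all genes with a threshold of 0.05. CPM values used the same scaling, so values of a library differ slightly between fits. Transcript features came from GENCODE 44 (human) and M21 (mouse), with 1 transcript per gene. Scripts were tested on simulated counts.

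Named beside the members were the 3 higher and 3 lower pathway genes with the smallest p in each cell type among called genes with at least 20 CPM and no overlap between fractions, isoenzymes with at least 20 CPM, LDHA, LDHB, SLC2A1 and SLC2A3, and the 5 genes most correlated with the mean of the members. A gene that this rule names is not reported here. The alternatives tried were a replicate block, RLE or library size scaling, DESeq2 1.42.0, filterByExpr, each library left out, ribosomal RNA genes left out, GC and length trends removed, copies summed and a fit of all 12 human libraries.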

Additional observations from a re-analysis of the deposited data

Results flagged for a closer look

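The change from cytoplasm to P-body differed between cell types for 19 combinations of a member and a pair of cell types, by the interaction term of edgeR's quasi-likelihood test at an adjusted p under 0.05. Day-20 neurons minus liver bud progenitors gave -1.38 for TPI1, -1.19 for PGAM1, -0.97 for PGK1, -0.95 for ALDOA, -0.64 for ENO1, -0.64 for PKM and -0.63 for GAPDH on the log2 scale. HEK293T minus liver bud progenitors gave -1.92 for PGAM1, -1.64 for TPI1, -1.23 for GAPDH, -0.95 for PGK1, -0.91 for ENO1, -0.72 for ALDOA, -0.68 for PKM, -0.58 for GPI and 0.40 for HK2. HEK293T minus day-20 neurons gave -0.82 for PGAM1, -0.69 for GAPDH and -0.53 for GPI. The comparisons share libraries, and in those with HEK293T the line, the construct and the library kit cannot be told apart from the cell type. Groups of 2 libraries are too small for a check of single outlying samples.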

How the results depend on the processing

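With GC content and length trends removed, 1 member was higher in HEK293T P-bodies and 5 were lower in neurons, ALDOA in liver bud progenitors (0.11) and Aldoa in mESC (0.079) changed sign, and in the difference of neurons minus liver bud progenitors 1 member was higher, 4 were lower and GAPDH changed sign (0.024). The HEK293T minus liver bud difference then had 0 members higher, as with DESeq2, library size alone and filterByExpr. For the differences and the cytoplasm this correction was chosen after seeing the data. Members higher in neurons minus liver bud progenitors numbered 2 with library size alone and 1 with filterByExpr, 8 were lower in HEK293T minus neurons with library size alone, and 1 was higher in neuron P-bodies in the fit of 12 human libraries. The cause was not tested, and these counts have no share of all genes from the same fits beside them. Library size alone put the median of all genes at -0.13 in HEK293T, 0.35 in neurons, -0.28 in liver bud progenitors and -0.51 in mESC.

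Leaving out each library in turn gave 0 to 1 members higher in neuron P-bodies, 0 to 2 higher in neurons minus liver bud progenitors, 0 to 1 higher in HEK293T minus liver bud progenitors and 2 to 5 lower in HEK293T minus neurons. A lone library was assumed to vary like the others.

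The labels do not tie equal replicate numbers together, and the correlation of same-numbered deviations lay between -0.0182 and 0.0569. With the replicate block, 1 member was higher in neurons minus liver bud progenitors (PFKP 1.18) and TPI1 was called in HEK293T minus neurons (-0.35).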
